A study of Mus musculus with 8 samples.

Results

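Cd209a+ conventional dendritic cells were examined in the stromal vascular fraction (SVF) of mouse inguinal white adipose tissue, the cells pelleted after collagenase digestion of the depot and therefore without adipocytes. They numbered 203 of the 36370 cells kept from 8 single-cell RNA-seq libraries. A member carried at least 2 UMIs of Cd209a, a UMI (unique molecular identifier) standing for 1 captured mRNA molecule. It also carried at least 10 UMIs of H2-Ab1 and Cd74 together, at most 1 of Xcr1 and Clec9a together and at most 2 of C1qa, C1qb and C1qc together. Members had no UMI of Cd3e, Cd79a, Pdgfra or Pecam1, which mark T cells, B cells, mesenchymal progenitors and endothelial cells. Since measured counts of these 12 genes chose the cells, every level in the members set beside that of other cells is given here as a description with no test. Tests were kept for TAN against Ad-Lib, which the rule did not use. The cells kept had also passed limits on UMIs, genes and mitochondrial share, the same in every library.

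All mice were C57BL/6 by the labels (the J substrain by the study's methods), and the fourth inguinal depot was the one digested. In 4 libraries (replicates 1, 3, 5 and 7) the mice had food ad libitum (Ad-Lib), and in the other 4 (replicates 2, 4, 6 and 8) they were given 2 meals a night (TAN). By the labels the mice of both groups were 8 weeks old, the study's methods put its male, chow-fed mice at a greater age, and the difference could not be settled here. The study counts 4 mice in each group for its comparisons of these data, which is as many as there are libraries, and p-values measure the spread between these libraries.

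Dendritic cells take up antigen in tissue and show it to T cells on MHC molecules, and conventional dendritic cells fall into 2 main types. Type 1 cells carry XCR1 and CLEC9A, depend on IRF8 and BATF3, and are known for presenting antigen on MHC class I to CD8 T cells. Type 2 cells carry SIRPA and often the lectins CLEC10A, MGL2 and CD209A, depend on IRF4 and KLF4, and are known for presenting antigen on MHC class II to CD4 T cells. Plasmacytoid dendritic cells, a separate lineage that makes type I interferon, carry SIGLECH and BST2 and depend on TCF4. In fat, macrophages rich in C1q outnumber all of these.

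The libraries held 25320800 to 37140950 UMIs in all and 3717 to 5654 cells kept, with a median of 3925.5 to 6560.5 UMIs per cell. Members were 46, 36, 23 and 18 in Ad-Lib 1, 3, 5 and 7 and 22, 14, 20 and 24 in TAN 2, 4, 6 and 8, which is 123 and 80 in all. Their summed counts ranged from 146197 UMIs in TAN 4 to 514989 in Ad-Lib 1, so that 3 UMIs, taken as the lowest countable level, equal 5.83 to 20.5 CPM (counts scaled to the same total in every library). The median UMIs of a member, averaged over libraries, were 11293 ± 1621 in Ad-Lib and 11140 ± 582 in TAN (SD, n = 4 each; exact permutation p = 0.914, two-sided), and no barcode was shared between members of different libraries, while 252 of all barcodes occurred in more than 1 library. Outside the members, lymphocytes (cells with a UMI of Cd3e or Cd79a) made up 2.53% to 23.2% of the Ad-Lib libraries and 8.27% to 37.1% of the TAN libraries (exact permutation p = 0.0857, n = 4 each). The median mitochondrial share of UMIs over all cells kept was 1.76% to 2.38% in Ad-Lib and 2.69% to 3.64% in TAN, without overlap (exact permutation p = 0.0286, the smallest that 4 against 4 libraries allow).

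The Cd209a threshold left 16 members at exactly 2 UMIs inside the rule, while 37 cells that met every other criterion had 1 UMI and 396 had none. On the C1q side, 33 members had 1 or 2 UMIs, 8 otherwise fitting cells had 3 to 9 and 750 had 10 or more. With respect to type 1 genes, 24 members had 1 UMI of Xcr1 or Clec9a and 13 otherwise fitting cells had 2 or more. Of the remaining criteria, the lineage genes left out 91 cells and the MHC class II limit had 1 cell just inside and 1 just outside. Cd209a, the lectin that named the cells, ranged from 2 to 84 UMIs per member with a median of 10, and its summed level was 763 to 1255 CPM over the 8 libraries.

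Of the 4 marker genes, the rule used Cd209a alone, and the others serve as a check of the name. The sequences just upstream of the 4 genes are shown because these genes define the cells, with the 250 bases before each RefSeq start printed 5′ to 3′ on the strand of the gene (GRCm38.p6). Capitals mark GGAAGT or its reverse complement ACTTCC, the core bound by ETS factors such as PU.1, whose gene Spi1 stood at 299 to 403 CPM in the members.
Cd209a (chr8:3748985-3749234, minus strand): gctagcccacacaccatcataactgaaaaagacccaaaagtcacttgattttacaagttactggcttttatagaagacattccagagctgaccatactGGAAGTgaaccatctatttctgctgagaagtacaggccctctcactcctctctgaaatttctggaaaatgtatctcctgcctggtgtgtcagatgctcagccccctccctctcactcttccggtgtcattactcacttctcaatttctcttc
Flt3 (chr5:147400490-147400739, minus strand): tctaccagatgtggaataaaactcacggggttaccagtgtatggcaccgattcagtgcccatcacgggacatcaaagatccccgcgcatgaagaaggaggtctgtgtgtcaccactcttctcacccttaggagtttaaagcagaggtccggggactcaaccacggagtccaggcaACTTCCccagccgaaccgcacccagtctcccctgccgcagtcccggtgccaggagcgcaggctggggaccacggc
Itgax (chr7:128129300-128129549, plus strand): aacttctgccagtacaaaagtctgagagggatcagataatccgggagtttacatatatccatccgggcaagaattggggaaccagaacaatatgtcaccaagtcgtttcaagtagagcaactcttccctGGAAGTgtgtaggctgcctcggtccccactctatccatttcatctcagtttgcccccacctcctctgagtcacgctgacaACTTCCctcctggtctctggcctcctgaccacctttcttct
H2-DMb2 (chr17:34144999-34145248, plus strand): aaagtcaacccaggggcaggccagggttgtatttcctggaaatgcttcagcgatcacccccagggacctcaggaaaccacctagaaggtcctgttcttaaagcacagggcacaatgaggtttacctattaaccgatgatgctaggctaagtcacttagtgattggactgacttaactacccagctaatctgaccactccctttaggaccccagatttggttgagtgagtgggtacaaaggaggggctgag
The letters began 152 bases before the start of Cd209a, 75 before that of Flt3, and 121 and 41 before that of Itgax, while the stretch of H2-DMb2 held none. Of all 32851 upstream stretches of this length, 6485 (19.7%) held the letters on either strand, so a match describes a sequence and does not mark a bound site. In the GENCODE M21 annotation, Cd209a lies on the minus strand of chromosome 8 (3743397 to 3748984), Flt3 on the minus strand of chromosome 5 (147330741 to 147400489), Itgax on the plus strand of chromosome 7 (128129547 to 128150657) and H2-DMb2 on the plus strand of chromosome 17 (34143307 to 34151555). The stretch shown for H2-DMb2 lies inside that gene model, whose start is farther upstream than the RefSeq one.

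Genes of conventional dendritic cells were present in the members of every library. In the order Ad-Lib 1, 3, 5 and 7, Flt3, the receptor of the cytokine that sustains dendritic cells, stood at 87.4, 91.5, 142 and 60.8 CPM, and in TAN 2, 4, 6 and 8 at 122, 144, 101 and 127 CPM. The groups overlapped, and the C1q+ macrophages of the same libraries had a mean of 0.149 CPM of Flt3. Itgax, the integrin CD11c, stood at 33.0, 58.5, 53.5 and 56.1 CPM in Ad-Lib and 23.7, 20.5, 68.9 and 49.5 CPM in TAN. H2-DMb2, part of the complex that loads peptide onto MHC class II, varied little among libraries, from 71.1 to 94.4 CPM. Its mean was 6.20 CPM in the macrophages and 42.6 CPM in the Xcr1+ Clec9a+ dendritic cells. At least 1 UMI of Flt3, Itgax or H2-DMb2 was found in 171 of the 203 members and in 104 of 123 Ad-Lib and 67 of 80 TAN members. The 32 members with none had a median of 9960 UMIs against 11553 in the others, so a count of 0 in a single cell was not read as absence.

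Against the Xcr1+ Clec9a+ dendritic cells (162 cells in all, with levels taken from the 7 libraries that held at least 10), the members were set apart by type 2 genes. Mgl2, a lectin that binds galactose-type sugars, had a mean of 760 CPM in the members (576 to 1263 over 8 libraries) and 4.07 CPM in the Xcr1+ cells. Clec10a, its close relative, had 457 CPM (336 to 588) and 2.69 CPM, and Sirpa, an inhibitory receptor for CD47, had 132 CPM (86.4 to 225) and 0.536 CPM. Irf4, a transcription factor of type 2 cells, had 76.9 CPM (41.0 to 117) in the members and 2.11 CPM in the Xcr1+ cells. In the other direction, Irf8 was at 1698 CPM in the Xcr1+ cells and at 0 to 315 CPM in the members, and Wdfy4 and Naaa, both typical of type 1 cells, were at 545 and 1212 CPM in the Xcr1+ cells against 58.3 to 117 and 142 to 388 CPM in the members. Chosen by the size of the gap between the nearest libraries, Lrp1, Il1rl1, Ccl9, Ddr1, Clec4a3 and Pltp also stood higher in the members, and Gcsam, Snx22, Rab7b, Ifi205, Ppt1 and Tlr3 stood lower. Il1rl1 encodes ST2, the receptor of interleukin-33. Its level in the members was 52.4, 48.3, 62.9 and 88.9 CPM in Ad-Lib and 55.3, 41.0, 87.3 and 77.8 CPM in TAN, it was carried by 91 of the 203 members, and no UMI of it was counted in the Xcr1+ cells of the 7 libraries.

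Against the C1q+ macrophages (2123 cells in 8 libraries), the widest gaps upward were those of Bcl11a, Flt3, Klrd1, Wnt11, Siglecg, H2-Oa and P2ry10. Bcl11a, a transcription factor of lymphoid and dendritic lineages, had a mean of 135 CPM (83 to 205) in the members and 0.782 CPM in the macrophages, and Klrd1, the natural killer receptor CD94, had 207 CPM (116 to 308) and 0.533 CPM. Itgb7, an integrin chain that serves homing to gut, was at 168 to 283 CPM in the members and had a mean of 9.81 CPM in the macrophages. Lower in the members were the resident macrophage genes Apoe, Pf4, Lyve1, Folr2, Cbr2 and C3ar1. Apoe, which carries lipid, had 39.8 CPM against 8616, Pf4 14.6 against 4167 and Lyve1 2.52 against 542, and C3ar1, a complement receptor, had no UMI in any member. The type 2 list did not set the members above this class. Mgl2 and Clec10a had means of 927 and 762 CPM in the macrophages, Sirpa 375 CPM against 132 in the members and Irf4 60.6 CPM against 76.9, and the 8 markers of the type 2 list summed to a mean of 3516 CPM in the macrophages against 2064 and 1979 CPM in the Ad-Lib and TAN members. In all remaining cells that sum had a mean of 1982 CPM (1264 to 3073), so the list did not set the members above these either.

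Against all remaining cells, the members were led by Tnip3, an inhibitor of NF-kB signalling (511 CPM, range 328 to 792, against 15.7), Ltb4r1, the leukotriene B4 receptor (171 CPM, range 123 to 233, against 5.22), and Mcemp1, Skint3, Cd300c2, Upb1, Mefv and Gpr141. Il1b, the inflammatory cytokine interleukin-1 beta, was at 992, 1185, 529 and 1043 CPM in Ad-Lib and 498, 1129, 869 and 1047 CPM in TAN. Its mean was 83.8 CPM in the macrophages and 355 CPM in the Xcr1+ cells. Ccr2, the receptor that draws monocytes and their kin into tissue, was at 605 to 1081 CPM, above the means of the macrophages (483 CPM) and the Xcr1+ cells (442 CPM). H2-Aa, the alpha chain of the main class II molecule, ranged from 7908 to 10341 CPM in the members and had means of 5889 and 7373 CPM in these classes.

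**Figure D1:**
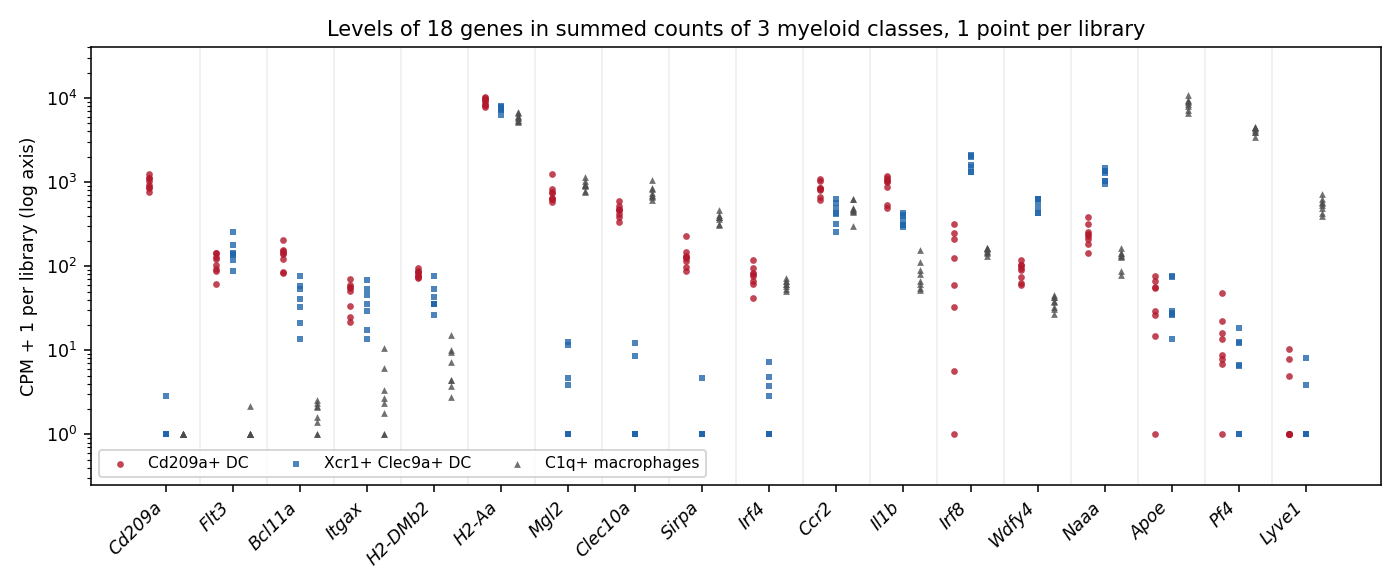
Levels of 18 genes in the summed counts of each library (CPM + 1, log axis) for the Cd209a+ cells (red circles, 8 libraries), the Xcr1+ Clec9a+ dendritic cells (blue squares, 7 libraries) and the C1q+ macrophages (grey triangles, 8 libraries). Flt3 and Bcl11a sat with the dendritic cells and apart from the macrophages, Mgl2 and Clec10a sat with the macrophages and apart from the Xcr1+ cells, and Irf8 spread from 0 to 315 CPM among the members' libraries.

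Markers of most other lineages were low in the members. The 5 progenitor markers (Dcn, Gsn, Col1a1, Col3a1 and Lum) summed to 147 to 713 CPM in Ad-Lib and 133 to 205 CPM in TAN against a mean of 18497 CPM in all remaining cells, and the 3 red cell genes (Hba-a1, Hba-a2 and Hbb-bs) to 13.6 to 1116 CPM and 0 to 50.6 CPM. A single member held 104 of the 152 Dcn UMIs, in Ad-Lib 1, and another 152 of the 160 Hba-a1 UMIs, in Ad-Lib 3. The 8 macrophage markers summed to 287 to 477 CPM in Ad-Lib and 146 to 485 CPM in TAN, against means of 1172 CPM in all remaining cells and 8656 CPM in the C1q+ macrophages, and most of this was Mrc1 (in 120 of the 203 members) and Cd163 (in 86). Ighm, an immunoglobulin heavy chain gene of B cells, was found in 144 members at 98.3 to 219 CPM, against a mean of 20685 CPM in the B cells and 154 CPM in the Xcr1+ cells. Other genes of these and further lists were at 0, with no UMI counted of Mertk, a macrophage receptor, of Ms4a1 (B cells), of Klrb1c, Ncr1 and Gzma (natural killer cells), of S100a8 and S100a9 (neutrophils) or of Cpa3 and Fcer1a (mast cells). The exceptions were the type 1 dendritic cell, monocyte and plasmacytoid lists. The 7 type 1 markers summed to 425 to 580 CPM in Ad-Lib and 352 to 653 CPM in TAN, above the 132 to 299 CPM of all remaining cells and below the mean of 4195 CPM in the Xcr1+ cells. The 8 monocyte markers (Ly6c2, Ccr2, Plac8, Chil3 and others) summed to 1231 to 1605 CPM in Ad-Lib and 873 to 1690 CPM in TAN, above the 513 to 873 CPM of all remaining cells. The C1q+ macrophages stood higher than the members, with a mean of 2936 CPM (2501 to 3506). Ccr2 alone gave 605 to 1081 CPM of the members' sum, and Chil3 had no UMI in any member. The plasmacytoid list (Siglech, Ccr9, Bst2 and Tcf4) summed to 164 to 963 CPM in Ad-Lib and 506 to 1724 CPM in TAN, against a mean of 685 CPM in all remaining cells.

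Much of the plasmacytoid list came from a small set of members. After the values were seen, the members were divided at 3 UMIs of Siglech, a sialic acid lectin of plasmacytoid dendritic cells. At or above the limit were 11 members with 3 to 31 UMIs (median 14), while the other 192 had 0 or 1. The 11 cells were spread over 6 libraries, with 1 in Ad-Lib 1, 4 in Ad-Lib 3, 1 in TAN 2, 2 in TAN 4, 2 in TAN 6 and 1 in TAN 8, and none in Ad-Lib 5 or 7. Their median depth was 8594 UMIs against 11421 in the others. Measured counts defined this division too, and it carries no test.

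The 11 cells shared many genes that the division did not use. Bst2, a surface protein that tethers virus, was at 13 to 56 UMIs in all 11 and pooled to 4825 CPM against 229 CPM in the 192. Irf8 was found in 11 of 11 cells against 20 of 192 (2385 and 18.2 CPM), Ly6c2 in 11 against 10 (1667 and 24.9 CPM), Ccr9 in 9 against 5 (486 and 3.56 CPM) and Ly6d in 9 against 0 (3059 and 0 CPM). Tcf4, the factor that drives the plasmacytoid fate, pooled to 1281 against 132 CPM, and Spib, Cd7, Ctsl and Plac8 were likewise higher. Of the type 2 markers, Sirpa was level (132 against 129 CPM), and Clec10a (276 against 454 CPM, in 8 of 11 and 160 of 192 cells), Irf4 (55.2 against 79.6 CPM) and Klf4 (265 against 488 CPM) were still present. Other genes of the 192 were low or absent there. Mgl2, Dusp1, Atf3 and Egr1 had 1 UMI each in the 11 cells, and Lyz2, Mrc1, Il1rl1, Zbtb46 and Csf1r had none, against 2498 CPM of Lyz2 and 189 CPM of Mrc1 in the 192. Zbtb46 stood at only 27.1 CPM in the 192, too low for its 0 to be read as a difference. Il1b had 55.2 against 951 CPM, Ccr2 177 against 870, Cd74 7409 against 22523 and H2-Aa 2275 against 9165. Cd209a itself was at 2 to 8 UMIs in these cells, and 5 of the 11 had a UMI of Flt3.
With Irf8 and Ly6c2 found in all 11 of these cells and Ccr9 and Ly6d in 9, and with Bst2 and Tcf4, which 135 and 104 of the 192 also carried, at the higher levels given above, the name conventional dendritic cells goes against the data in 5.42% of the members. The shares of members and the main gene-by-gene test below are given without these cells as well. The name was not settled for every one of the other 192 either. In 11 of them Bst2 reached at least 13 UMIs, the lowest count of the Siglech cells, with 0 to 2 UMIs of Irf8 and, in 3, a UMI of Ccr9, and 2 carried Ccr7 together with Fscn1, which mark mature dendritic cells. Of the 192, 117 carried Flt3 and 51 Zbtb46, while 186 carried Ccr2, 120 Mrc1, 85 Cd163 and 58 Csf1r. No library held 10 or more Ly6c2+ monocytes, so levels were not set beside those of monocytes. Whether some members derive from monocytes was not tested.

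**Figure D2:**
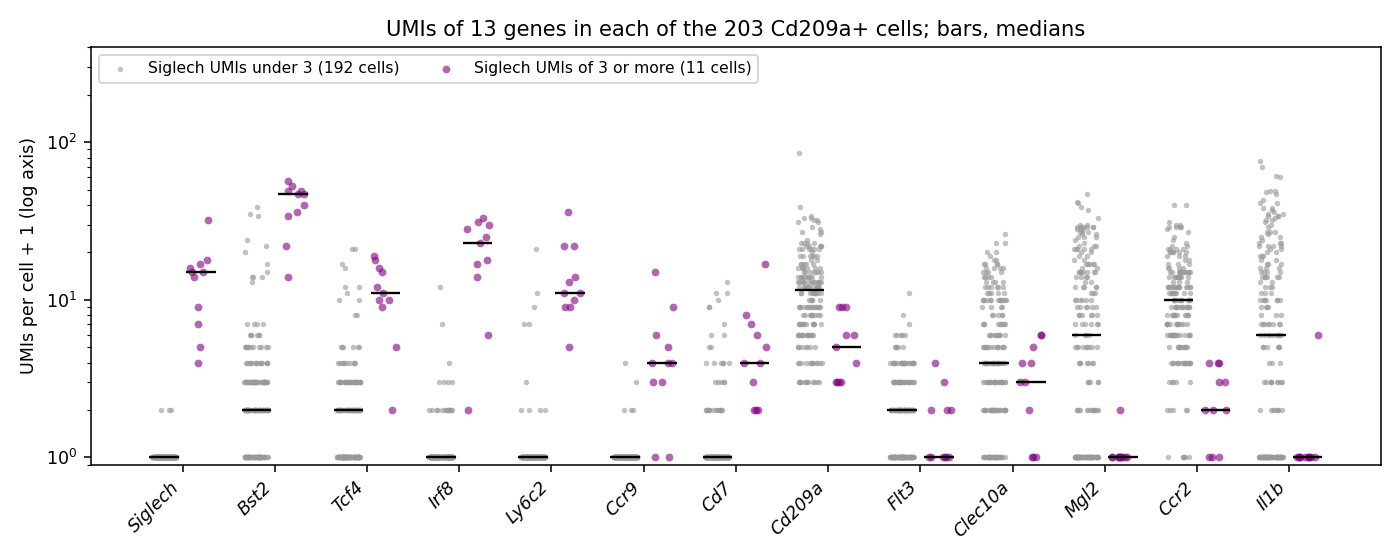
UMIs per cell (plus 1, log axis) of 13 genes in each of the 203 members, with the 11 cells of 3 or more Siglech UMIs in purple, the other 192 in grey and bars for the medians. Bst2, Irf8, Ly6c2 and Ccr9 were high in the purple cells, in which Mgl2 and Il1b were nearly absent.

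Among the other 192 members, cells with and without Mgl2 differed in further genes. At least 1 UMI of it was found in 132 and none in 60, with median depths of 11674.5 and 11204 UMIs, and this division too was made on measured counts and carries no test. Of the 60, 3 each came from TAN 4 and TAN 6 and 4 from Ad-Lib 7, so these libraries compare few cells. Retnla, a secreted protein of alternatively activated macrophages, was carried by 49 of the 132 and 18 of the 60. A single member held 334 of its 2448 UMIs in all members. Retnla pooled to 1505 CPM in the Mgl2+ cells and 158 CPM in the others and was higher in the Mgl2+ cells of 8 of 8 libraries. The same held, in 8 of 8 libraries, for Fcrls (115 and 7.19 CPM), the metallothionein Mt2 (182 and 15.8 CPM) and H2-Aa (9656 and 8068 CPM). Higher in 7 of 8 libraries were the scavenger receptors Mrc1 (232 and 92.0 CPM) and Cd163 (143 and 53.2 CPM) and the interleukin-33 receptor Il1rl1 (76.6 and 38.8 CPM). Cd7, a surface protein of T cells and of a fraction of dendritic cells, ran the other way with 18.7 CPM in the Mgl2+ cells and 135 CPM in the others, and was higher in the Mgl2+ cells of 0 of 8 libraries. Clec10a pooled to 446 and 474 CPM and did not follow Mgl2. Mrc1 is also a macrophage gene, with a mean of 1674 CPM in the C1q+ macrophages, and the part of macrophage RNA in these values was not tested.

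Dividing and mature cells were few. Mki67, a marker of proliferation, was found in 20 members (13 Ad-Lib and 7 TAN), 11 of which also carried Top2a and 9 of which carried Cdk1, and none of the 20 was among the Siglech cells. Ccr7, the receptor that guides mature dendritic cells to lymph nodes, was found in 6 members, and Fscn1 with it in 2. In the separate class of Ccr7+ Fscn1+ dendritic cells (136 cells, of which 76 came from TAN 6), only 4 libraries held at least 10 cells. Over these the mean of Ccr7 was 1316 CPM, against 0 to 53.4 CPM in the members' libraries.

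The first comparison asked whether timed feeding went with more or fewer of these cells. As a share of all cells kept, the members were 0.894%, 0.736%, 0.606% and 0.484% in Ad-Lib 1, 3, 5 and 7 and 0.509%, 0.284%, 0.354% and 0.612% in TAN 2, 4, 6 and 8. The groups overlapped, with TAN 8 above Ad-Lib 5 and 7. The means were 0.680% ± 0.176 and 0.440% ± 0.149 (SD, n = 4 each), and the difference of -0.240 percentage points was within the spread between libraries (exact permutation p = 0.143, two-sided). In a further count, cells under 2000 UMIs were left out of members and total alike, and all others were thinned to 2000 UMIs before the rule was applied. The difference was then -0.0277 points (exact permutation p = 0.886). Shares of whole SVF also depend on the lymphocytes in each library, and with those left out of the total the means were 0.755% ± 0.220 and 0.575% ± 0.166 (exact permutation p = 0.229, n = 4 each).

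As a share of the 5 myeloid classes (the members, Xcr1+ Clec9a+ and Ccr7+ Fscn1+ dendritic cells, C1q+ macrophages and Ly6c2+ monocytes), the members were 9.31%, 9.70%, 7.64% and 5.54% in Ad-Lib and 7.75%, 4.68%, 6.67% and 8.51% in TAN. The highest were Ad-Lib 1 and 3 and the lowest was TAN 4, and the groups overlapped. Means of 8.05% ± 1.90 and 6.90% ± 1.66 differed by -1.15 points (exact permutation p = 0.429, n = 4 each). This difference turned to 1.72 points, with 4.17% in Ad-Lib and 5.89% in TAN, once cells were thinned to 2000 UMIs and shallower cells left out (exact permutation p = 0.171). Without Ad-Lib 1, Ad-Lib 3 or TAN 4 it was -0.726, -0.596 and -0.407 points, and without Ad-Lib 7 it was -1.98 points. A Cd209a threshold of 1 UMI gave -0.339 points, and a C1q limit of 0 UMIs gave -0.207 points. Leaving out the 11 Siglech cells gave -0.246 points of all cells (exact permutation p = 0.0857) and -1.34 points of the myeloid classes (exact permutation p = 0.286). Counting intervals for each library (95%, Clopper-Pearson) were wide, from 0.155% to 0.476% in TAN 4 and from 0.655% to 1.19% in Ad-Lib 1, and they cover counting error only.

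**Figure D3:**
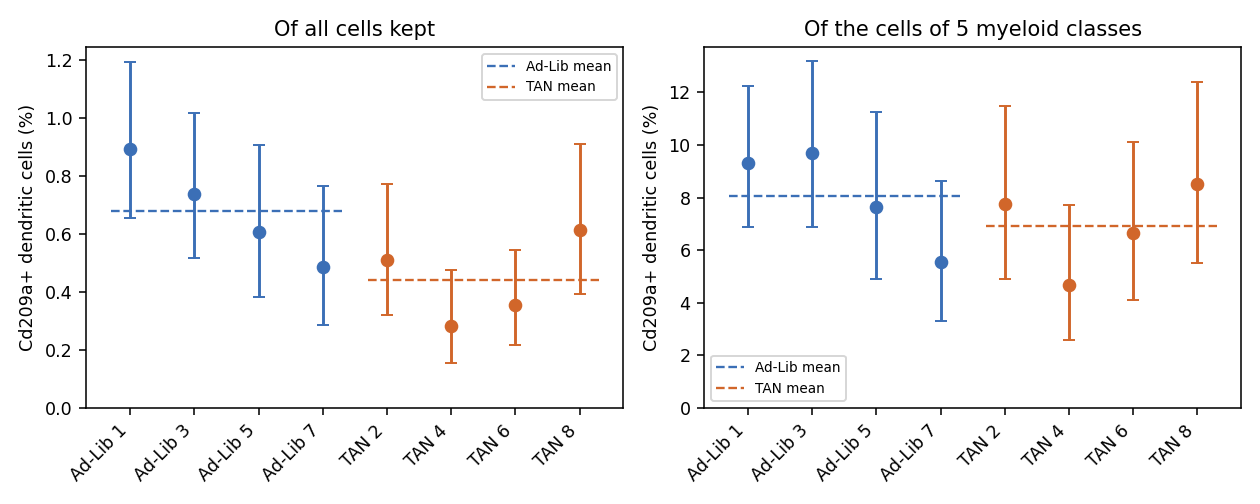
Members as a percent of all cells kept (left) and of the cells of 5 myeloid classes (right) in each library, Ad-Lib in blue and TAN in orange, with 95% Clopper-Pearson intervals and dashed group means. The groups overlapped in both, with means of 0.680% and 0.440% on the left and 8.05% and 6.90% on the right.

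The second comparison concerned the state of the cells, read as the share of members with a UMI of each of 10 genes after thinning to 2000 UMIs per cell (1 member in Ad-Lib 7 and 1 in TAN 6 were too shallow). Mgl2 was found in 52.7% ± 11 of Ad-Lib and 46.8% ± 4.99 of TAN members (SD, n = 4; exact permutation p = 0.457), Clec10a in 49.5% ± 5.05 and 49.6% ± 9.30 (exact p = 1) and Il1b in 53.3% ± 12.4 and 49.2% ± 6.90 (exact p = 0.6). Ccr2 was found in 75% ± 8.41 and 68.4% ± 3.31 (exact p = 0.2). Mki67 stood at 4.45% ± 2.48 and 4.38% ± 3.63 (exact p = 1). Background shares in the B cells (median depth 3104 to 10782 UMIs over libraries, thinned likewise) were 0.497% for Mgl2, 0.627% for Clec10a, 0.380% for Il1b, 0.346% for Ccr2 and 0.701% for Mki67. Before thinning, the shares were 66.2% and 65.1% for Mgl2, 85.6% and 82.0% for Clec10a, 66.0% and 61.6% for Il1b, 94.6% and 97.2% for Ccr2 and 12.1% and 9.50% for Mki67. None of the 10 genes, which also included Ccr7, Fcgr1, Itgae, Cd7 and Ltb, reached an exact p under 0.05, and adjusted p-values (Benjamini-Hochberg over the 10) were 0.939 to 1. Without Ad-Lib 3, in which 62.5% of members had Ccr2 against 78.7% to 80.1% in the other Ad-Lib libraries, the difference in Ccr2 was -10.9 points (exact permutation p = 0.0286).

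The third comparison, gene by gene, called no gene. Of 3046 genes tested by edgeR on counts summed over the members of each library, 0 (percent called 0) passed an adjusted p under 0.05 with a change of at least 1.5-fold, and the lowest adjusted p was 0.835. DESeq2 also called 0, with a lowest adjusted p of 0.0782. At an unadjusted edgeR p under 0.05 stood 107 genes (3.51%), 49 of them higher (1.61%) and 58 lower (1.90%) in TAN, and the DESeq2 count was 44. The groups' library values did not overlap in 68 genes (2.23%), 33 higher (1.08%) and 35 lower (1.15%). The median standard error of a log2 change was 0.26 and the median half-width of its 95% interval was 0.56 before any adjustment over genes. Without the 11 Siglech cells, edgeR called 0 of 2967 genes, with a lowest adjusted p of 0.137.

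With no filter on low counts, edgeR called 44 of 13116 genes, 14 higher and 30 lower, of which 17 had also been tested with the filter and were then not called. In 4 of the 44, UMIs came from 1 or 2 libraries alone. Ccl17, a chemokine of type 2 dendritic cells that draws CCR4+ T cells, was among them with 14, 7, 32 and 2 UMIs in Ad-Lib and 0, 0, 0 and 1 in TAN, but 30 of these 56 UMIs came from a single member of Ad-Lib 5 and 11 members held all of them. Fabp5, a fatty acid binding protein, had 175, 225, 7 and 6 UMIs in Ad-Lib and 3, 1, 3 and 2 in TAN, with 162 of them in a single member of Ad-Lib 1. For Hba-a1, 153 of the 160 UMIs lay in Ad-Lib 3. The 14 higher included Siglech, Irf8, Ctsl and Bst2, which were also higher in the 11 Siglech cells. Those cells held 141, 216, 153 and 437 UMIs of these genes, and the other 192 members held 3, 41, 29 and 514. The count with no filter was not repeated without the Siglech cells. All genes named here were singled out after their values were seen.

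The genes with the smallest unadjusted p were mt-Cytb, mt-Atp6, Smad7, Ptgs2, Pak1, Cox16, mt-Co2, Ccl4, mt-Atp8 and mt-Co1, and none of the 10 was called. Smad7, which restrains TGF-beta signalling, was at 25.2, 58.5, 34.6 and 37.4 CPM in Ad-Lib and 90.9, 95.8, 78.1 and 81.4 CPM in TAN. Every TAN library was above every Ad-Lib library, with a log2 difference of 1.14 (SE 0.29, edgeR unadjusted p = 0.0011, adjusted p = 0.999). Pak1, a kinase of the cytoskeleton, was at 23.3, 38.1, 37.8 and 51.5 CPM in Ad-Lib and 75.1, 68.4, 64.4 and 67.2 CPM in TAN, again without overlap (log2 0.95, SE 0.27, edgeR adjusted p = 0.999). Cox16, an assembly factor of respiratory complex IV, ran the other way without overlap, at 62.1, 76.3, 104 and 74.9 CPM in Ad-Lib and 35.6, 41.0, 59.8 and 24.8 CPM in TAN (log2 -0.99, SE 0.29, edgeR adjusted p = 0.999). Ptgs2, the inducible enzyme of prostaglandin synthesis, overlapped between groups, at 50.5, 43.2, 25.2 and 9.36 CPM in Ad-Lib and 90.9, 34.2, 147 and 88.4 CPM in TAN (log2 1.36, SE 0.39, edgeR adjusted p = 0.999). Ccl4, a chemokine that attracts monocytes and T cells, was at 118, 353, 123 and 206 CPM in Ad-Lib and 312, 363, 625 and 379 CPM in TAN. Ad-Lib 3 overlapped with TAN there, and without it Ccl4 was the 1 gene called (log2 1.57, edgeR adjusted p = 0.0243) against 1.04 with all libraries. Without the filter on low counts, mt-Cytb, Smad7, Ptgs2 and Ccl4 passed, at edgeR adjusted p = 0.0248, 0.0445, 0.0032 and 3.11e-05.

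**Figure D4:**
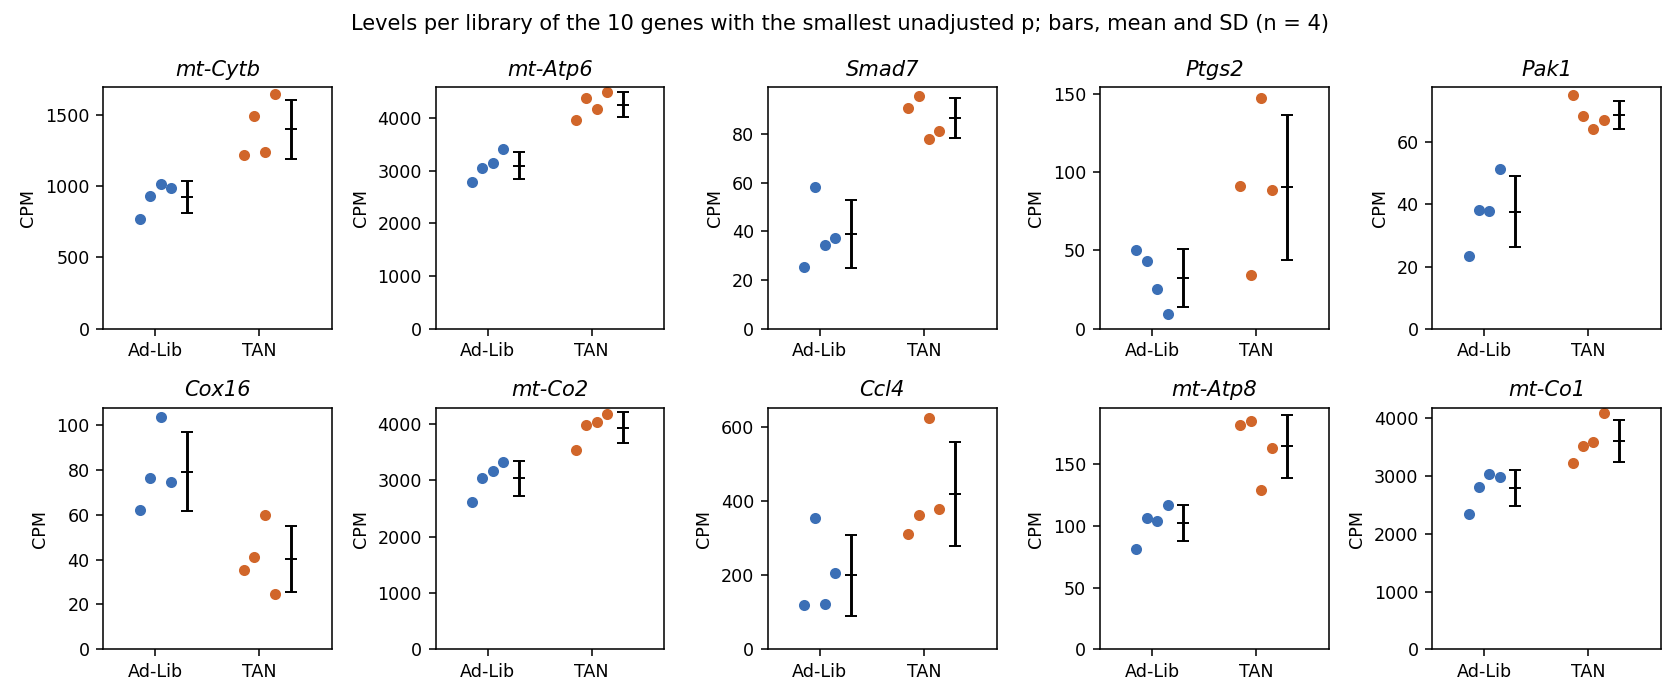
Levels (CPM, linear axes from 0) of the 10 genes with the smallest unadjusted p, 1 point per library, Ad-Lib in blue and TAN in orange, with the mean and SD (n = 4). The groups did not overlap in 8 of them and overlapped in Ptgs2 and Ccl4, and none passed the adjusted threshold.

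Genes encoded by the mitochondrial genome, which make subunits of the respiratory chain, lay above 0 together. Of 13 in the list 12 were tested and all 12 had a positive log2 difference, with 9 at an unadjusted p under 0.05 higher in TAN, none lower (1.61% of all genes tested were higher at that p), and a median of 0.38 against 0.005 over all genes tested. The groups did not overlap in 6 of the 12, as in 2.23% of all genes tested, and none was called (lowest edgeR adjusted p = 0.835). mt-Cytb was at 767, 930, 1016 and 987 CPM in Ad-Lib and 1217, 1491, 1241 and 1649 CPM in TAN (log2 0.61, SE 0.13, edgeR unadjusted p = 3.0e-04). mt-Atp6 had means of 3099 ± 258 and 4261 ± 236 CPM (SD, n = 4).
Beside these levels stands the mitochondrial share of other cells. Summed over these genes, it was 1.27% to 1.6% in the Ad-Lib and 1.72% to 2.10% in the TAN members, and 1.84% to 2.45% and 2.62% to 3.35% in all remaining cells, without overlap in either (exact permutation p = 0.0286 for both, n = 4 each, the smallest possible). The median share per member overlapped, at 1.15% to 1.69% in Ad-Lib and 1.38% to 1.94% in TAN (exact permutation p = 0.143, n = 4 each). The groups overlapped in the macrophages (1.90% to 2.73% and 2.47% to 3.17%, exact permutation p = 0.114), in the B cells (1.80% to 3.80% and 2.95% to 4.25%, exact permutation p = 0.2) and in the Xcr1+ cells (1.62% to 1.81% and 1.58% to 2.41%, exact permutation p = 0.343, 3 against 4 libraries). The difference between members and macrophages passed the threshold for 0 of the 13 genes (edgeR interaction, adjusted p = 0.955 to 1), and in macrophages alone mt-Cytb and mt-Nd4l had adjusted p = 0.0232 and 0.0426 at log2 differences of 0.47 and 0.44, under the 1.5-fold limit. The part of cell quality in these values was not tested.

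Antigen presentation showed no gene past the unadjusted threshold, under which 3.51% of all genes tested stood. With so low a share, counts of 0 in lists this short do not set these genes apart from others. Of 12 class II genes tested (H2-Aa, H2-Eb1, H2-DMa, Ciita and others), 0 were at an unadjusted p under 0.05 and the median log2 difference was 0.03, and of 13 class I genes 0 were, with a median of -0.02. H2-Aa was at 8262, 7908, 8977 and 10341 CPM in Ad-Lib and 9348, 9829, 8182 and 9924 CPM in TAN, fully overlapping (log2 0.09, SE 0.12). Ciita, the master regulator of class II genes, was at 173 to 257 CPM and 103 to 237 CPM. Of 5 costimulatory genes tested, Tnfsf9, the ligand of 4-1BB, was at an unadjusted p of 0.041 (log2 0.70), with 128, 150, 214 and 234 CPM in Ad-Lib and 328, 417, 91.9 and 308 CPM in TAN. TAN 6 was the lowest of all 8 libraries for it, so the groups overlapped. Cd86, a costimulator of T cells, had a log2 difference of -0.28 (SE 0.43).

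Some lists of receptors, chemokines and inflammasome genes gave a few genes at the unadjusted threshold, under which 3.51% of all genes tested stood, and none that was called. Of 16 cytokine receptors, Csf1r, the receptor of macrophage colony-stimulating factor, was at 62.1, 55.9, 66.1 and 60.8 CPM in Ad-Lib and 35.6, 34.2, 32.2 and 53.1 CPM in TAN, without overlap (log2 -0.62, SE 0.26, unadjusted p = 0.028). Il1rl1, the interleukin-33 receptor, had a log2 difference of 0.15 (SE 0.27), and Crlf2, the receptor of the alarmin TSLP, 0.20 (SE 0.20). Of 9 C-type lectin receptors, Clec4a3 was at an unadjusted p of 0.046 (log2 -0.50), whereas Clec10a and Mgl2 had differences of 0.05 (SE 0.16) and -0.18 (SE 0.20). Of 8 chemokines, Ccl4 was the 1 gene higher and Ccl7, a ligand of CCR2, the 1 lower (log2 -1.90, unadjusted p = 0.042), with 84 of its 163 UMIs in Ad-Lib 7. Of 4 inflammasome genes, Casp1, the protease that matures interleukin-1 beta, had an unadjusted p of 0.027 (log2 0.65), at 40.8, 35.6, 47.2 and 42.1 CPM and 75.1, 41.0, 50.6 and 81.4 CPM. Il1b had a difference of -0.11 (SE 0.25). The 3 interferon-induced, 3 Toll-like receptor and 3 cytokine genes tested gave none. Neither did the 9 genes of chemokine receptors and migration or the 5 of Fc and scavenger receptors. Il12b, Il23a and Il27 had no UMI in any member.

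Transcription factors and response genes were the other lists with genes below the threshold. Of 15 dendritic cell transcription factors, 3 were lower at an unadjusted p under 0.05, as were 1.90% of all genes tested. Stat3, which relays signals of interleukin-6 and leptin, was at 89.3, 109, 85.0 and 98.3 CPM in Ad-Lib and 59.3, 34.2, 73.5 and 56.6 CPM in TAN, without overlap (log2 -0.74, SE 0.25, unadjusted p = 0.00851). Cebpb (log2 -1.0, unadjusted p = 0.024) and Nr4a3 (log2 -1.20, unadjusted p = 0.019) overlapped between groups. Per1, a core repressor of the circadian clock, was at 62.1, 50.8, 53.5 and 70.2 CPM in Ad-Lib and 7.90, 47.9, 4.60 and 46.0 CPM in TAN. Every TAN library was below every Ad-Lib library, with 2 of them under the level of 3 UMIs (log2 -1.18, SE 0.43, unadjusted p = 0.015). It was the 1 of 3 clock genes tested at that threshold, and while the labels give no time of day, the study's general methods place tissue collection at midnight, in the dark phase. Of 7 glucocorticoid-responsive genes, Per1 and Tsc22d3 (log2 -0.60, unadjusted p = 0.049) were lower. Of 6 insulin and leptin signalling genes Stat3 alone was, and Lepr, the leptin receptor, had no UMI in any member. The 20 AP-1 and immediate early genes (median log2 0.04), 9 heat shock genes, 11 glycolytic genes, 11 lipid genes and 7 cell cycle genes (all 7 negative, median -0.17) gave none. Gsn, at log2 -0.78 (unadjusted p = 0.014), is a progenitor marker, and the summed progenitor markers were highest in Ad-Lib 1.

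**Figure D5:**
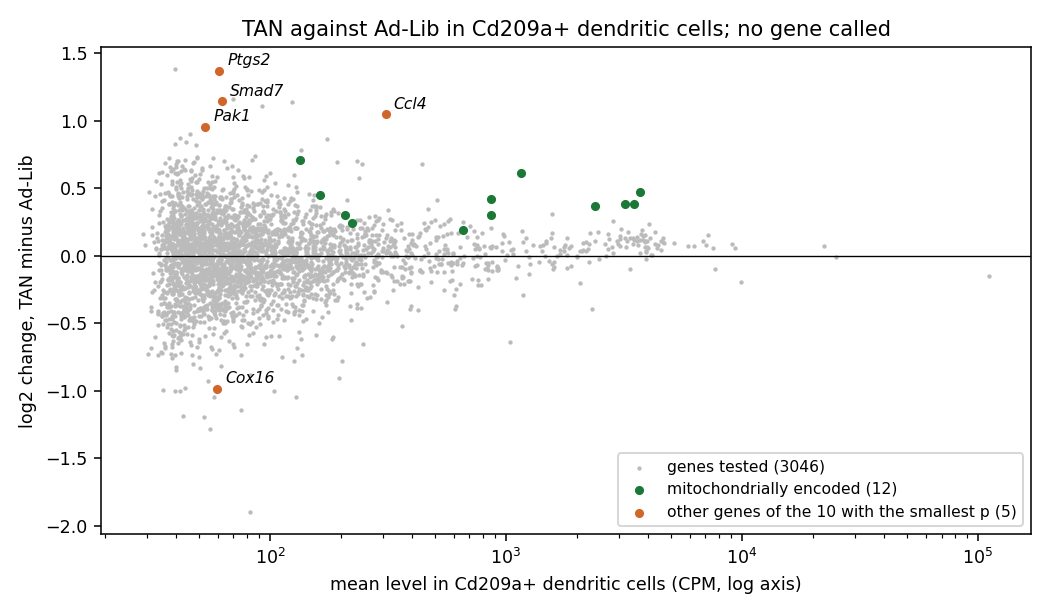
Log2 difference of TAN minus Ad-Lib (vertical) against mean level (CPM, log axis) for the 3046 genes tested in the members. The 12 mitochondrially encoded genes (green) all lay above 0, with a median of 0.38, and 5 other genes of the 10 with the smallest p are named in orange, none of them called.

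The last comparison asked whether the members' response to TAN differed from that of the C1q+ macrophages in the same libraries. Of 7043 genes, edgeR called 0 in the test of the difference (percent called 0, 372 at an unadjusted p under 0.05, lowest adjusted p 0.361), while 46 of 8735 genes were called in the macrophages alone (17 higher and 29 lower). Smad7 was at 1.52 and 1.32 CPM in the macrophages of the groups and could not be compared closely (difference of log2 changes 1.82, SE 0.95). For Ccl4, macrophages had means of 226 and 451 CPM, a log2 change of 1.03 against 1.04 in the members, with a difference of 0.11 (SE 0.39, edgeR adjusted p = 0.996). Cox16 had a log2 change of -0.09 in the macrophages against -0.99 in the members, and the difference of -0.89 (SE 0.31) had an edgeR adjusted p of 0.878. Against the Xcr1+ cells, 0 of 3905 genes were called (236 at an unadjusted p under 0.05).
The count moved when either of 2 libraries was left out and stayed at 0 without each of the other 6. Without Ad-Lib 5 the test called Fabp5 and Basp1, and without Ad-Lib 7 it called Fabp5, Cd55, Hbb-bs, Hba-a1 and Hba-a2, each lower in TAN in the members relative to the macrophages. Basp1 had 46, 43, 8 and 19 UMIs in the Ad-Lib members and 7, 5, 9 and 14 in TAN. Cd55 had 17, 4, 0 and 0 and 0, 0, 2 and 0. Both genes, like Fabp5, had most UMIs in Ad-Lib 1 and 3, and Hbb-bs had 177 of its 210 in Ad-Lib 3. With no filter on low counts 34 of 16278 genes were called.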

How the data were processed

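SVF cells from inguinal fat of Ad-Lib and TAN mice (4 libraries each) were captured with the 10x Genomics Chromium 3′ v3 chemistry. The authors deposited raw UMI counts per gene and barcode, not normalized, 1 matrix per library. Their processing notes name Cell Ranger 3.0.2 and the mm10 (GRCm38) genome with reads in exons counted, whereas the file headers name Cell Ranger 6.0.1, so the version is not certain. No column belonged to any other sample. Of 44427 barcodes (232345333 UMIs), 36370 with 700 to 30000 UMIs, 200 to 8000 genes and at most 10% mitochondrial UMIs were kept. Doublets were not removed, and a simulated-doublet score (0.8% of cells per 1000) was tried as an alternative that marked 4 members.

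The members, gene lists and tests were chosen with earlier results of these data known. Groups came from the labels. Shares were compared by exact two-sided permutation tests over the 70 assignments of 8 libraries, whose smallest p is 0.0286. Counts of the members were summed per library and fitted with edgeR 4.0.16 (TMM, filterByExpr, quasi-likelihood test, limma 3.58.1, R 4.3.3), with Benjamini-Hochberg adjustment over all genes tested, and a gene was called at an adjusted p under 0.05 and 1.5-fold. The 12 genes of the rule were fitted but not counted as called. DESeq2 1.42.0 was an alternative. The difference from macrophages was an interaction with library as a term. Both fits were tested on simulated data. CPM are counts scaled by the total UMIs of the summed cells. Named genes were the 10 with the smallest unadjusted p, since fewer than 10 were called, members of the 38 lists, and leading genes by the ratio of the nearest libraries, among those with at least 100 UMIs. Coordinates are from GENCODE M21 (32158 of 32285 gene IDs matched) and sequences from RefSeq, GRCm38.p6. Python 3.11.15, numpy 2.4.6, scipy 1.17.1, pandas 2.3.3, scanpy 1.11.5 and matplotlib 3.10.9 were used. Alternatives covered the rule's thresholds, depth, doublets, normalization, the filter on low counts and each library left out. Members with at least 3 Siglech UMIs were left out as an alternative chosen after seeing the data.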

Additional observations from a re-analysis of the deposited data

Results flagged for a closer look

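A library was picked out where its gap to the nearest other library of its group made up more of the range of the group's 4 libraries than Dixon's 95% critical value, which chance gives in about 1 in 20 groups. Of 86 groups checked, 8 met this. Ad-Lib 3 stood apart in 3 of them. Its lymphocytes were 23.2% of cells against 2.53% to 5.90% in the other Ad-Lib libraries, the thinned share of its members with Ccr2 was 62.5% against 78.7% to 80.1%, and its Sirpa level was 86.4 CPM against 126 to 131 CPM. TAN 4, the library with the fewest members, had the highest thinned shares of Clec10a, 63.5% against 44.6% to 45.6%, and of Cd7, 19.4% against 8.44% to 9.17%, and 2 of its 14 members were among the 11 Siglech cells. The other flags rest on a single member each with the gene, since the other 3 TAN libraries were at 0, with thinned shares of 1.09% for Ccr7 in TAN 6, 0.642% for Fcgr1 in TAN 8 and 2.31% for Itgae in TAN 2.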

How the results depend on the processing

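No paired analysis was possible because the groups share no replicate numbers. Of 363 recomputed values, 336 kept their direction and their side of the threshold or their size. The share among myeloid classes turned to 1.72 points when cells were thinned to 2000 UMIs, and over libraries left out in turn it ranged from -1.98 to -0.407 points (exact p 0.143 to 0.771), against -0.305 to -0.169 points for the share of all cells (exact p 0.0857 to 0.229). Genes called numbered 44 with no filter on low counts and 0 to 1 over libraries left out, and calls of the interaction with macrophages 34 with no filter and 0 to 5. The state genes at an exact p under 0.05 numbered 0 to 1 over libraries left out. Among these genes the direction turned for Clec10a (-3.60 points unthinned, -4.54 to 1.77 over libraries left out), Ccr2 (2.58 points unthinned), Mki67 (0.357 points without the Siglech cells, -1.69 to 1.23 over libraries left out) and Cd7 (-0.586 points without the Siglech cells, -0.255 to 4.69 over libraries left out). For Mki67 the turned values were 0.0385, 0.472 and 0.486 points without Ad-Lib 1, 5 and 7, and 0.00392, 0.192 and 1.23 without TAN 2, 4 and 8. For Clec10a they were -2.37 without Ad-Lib 3 and -4.54 without TAN 4, and for Cd7 -0.198 without Ad-Lib 7 and -0.255 without TAN 4. The cause was not tested. The members were few, 14 to 46 per library, and a share of 0 among them bounds only cells with a UMI.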
